A study of Zea mays with 9 samples.

Results

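The genes of the maize mitochondrial genome were examined in primary root apices of the inbred line B73. They were taken by position: every gene placed on the mitochondrial sequence (Mt) of the deposited expression table with a value above 0 in at least 1 condition was kept, which gave 111 of the 144 Mt genes, in a table of 45260 genes. Values are RPKM, read counts scaled by transcript length and by sequencing depth, here with quartile normalization between libraries and 1 pooled value per condition. The lowest of the members, GRMZM5G806435, reached 0.0188 RPKM in its highest condition, and the other 33 Mt genes were listed at 0 in all 3 conditions.

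Seedlings were germinated for 3 days, kept without nitrogen as a shared pre-treatment, and then grown for 24 h in nutrient solution with 1 mM nitrate and 1 mM cPTIO (+NO3- + cPTIO), with 1 mM nitrate alone (+NO3-), or without nitrogen (−N). cPTIO is a scavenger of nitric oxide (NO), so the first pair of conditions asks what nitrate-fed roots express when NO is removed, and +NO3- against −N asks what nitrate itself changes. All seedlings were wild type B73, and each library came from pooled apices of several seedlings. The labels list 3 libraries per condition, those of +NO3- and −N being taken over from earlier work of the same group, and the table gives 1 pooled value per gene and condition. There is therefore no replicate error, no test and no interval for any value or ratio given here, the number of reads behind each pooled value cannot be recovered from the table, and how the data for cPTIO and for the other conditions were collected cannot be told apart from the treatment. The study states that not every +NO3- + cPTIO library was kept after quality filtering, and its read summary gives 1 of the libraries of that condition the largest share of reads that map to several places.

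A plant mitochondrial genome encodes a small set of subunits of the respiratory complexes and of ATP synthase, proteins of the mitochondrial ribosome, factors for cytochrome c maturation, a maturase for group II introns, ribosomal and transfer RNAs, and many open reading frames (ORFs) whose products are not known. Most of the proteins of the organelle come from nuclear genes. Mitochondrial transcripts of plants lack stable poly(A) tails, and polyadenylation there marks RNA for degradation. The libraries are labelled as polyA RNA, so the values below describe what passed that selection, and the level in the tissue and the recovery in the library cannot be told apart. In bulk apices, fewer cells rich in mitochondria and less mitochondrial RNA per cell cannot be told apart either.

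The table gives the Mt genes identifiers only. A gene is called below by a RefSeq symbol where its interval on Mt has the same start and end as a mitochondrial gene of the B73 NAM 5.0 assembly and no other gene shares its locus, which was the case for 71 of the 111 members. Of the other 40 members, those with a longer locus are described by the RefSeq genes that lie whole within it. Ribosomal RNA and intron features carry the names that the study's own gene list gives them. Positions are those of the table (B73 RefGen_v4), counted from 1.

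Most mitochondrial genes had low values. Of the 111 members, 47 reached 1 RPKM in at least 1 condition, 19 reached 5 RPKM and 12 reached 10 RPKM. The median over the 111 members was 0.383 RPKM in +NO3- + cPTIO, 0.385 RPKM in +NO3- and 0.406 RPKM in −N. Members above 0 numbered 86 in +NO3- + cPTIO, 100 in +NO3- and 95 in −N, and 78 were above 0 in every condition. The 64 members under 1 RPKM in every condition were mostly ORFs (50 of 64), and they also held rps4 (a protein of the small ribosomal subunit), ccmB (a factor of cytochrome c maturation) and orfX. Together these 64 summed to 8.88 RPKM in +NO3- + cPTIO, 11.2 RPKM in +NO3- and 11.3 RPKM in −N.

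A few genes held nearly all of the mitochondrial signal. The summed RPKM of the 111 members was 1093 in +NO3- + cPTIO, 2272 in +NO3- and 1576 in −N. The 2 features named as large subunit ribosomal RNA, together with rps12 and nad3, made up 80.9% of that sum in +NO3- + cPTIO, 86.6% in +NO3- and 83.5% in −N. The remaining 107 members summed to 209 RPKM, 306 RPKM and 260.4 RPKM in the same order of conditions. On the log2 scale the sum over all members differed by −1.06 between +NO3- + cPTIO and +NO3-, by −0.53 between +NO3- + cPTIO and −N, and by 0.53 between +NO3- and −N. Without the ribosomal RNA features these differences were −0.73, −0.35 and 0.38. As a share of the summed RPKM of the whole table, the members held 0.141% in +NO3- + cPTIO, 0.248% in +NO3- and 0.178% in −N.

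**Figure D1:**
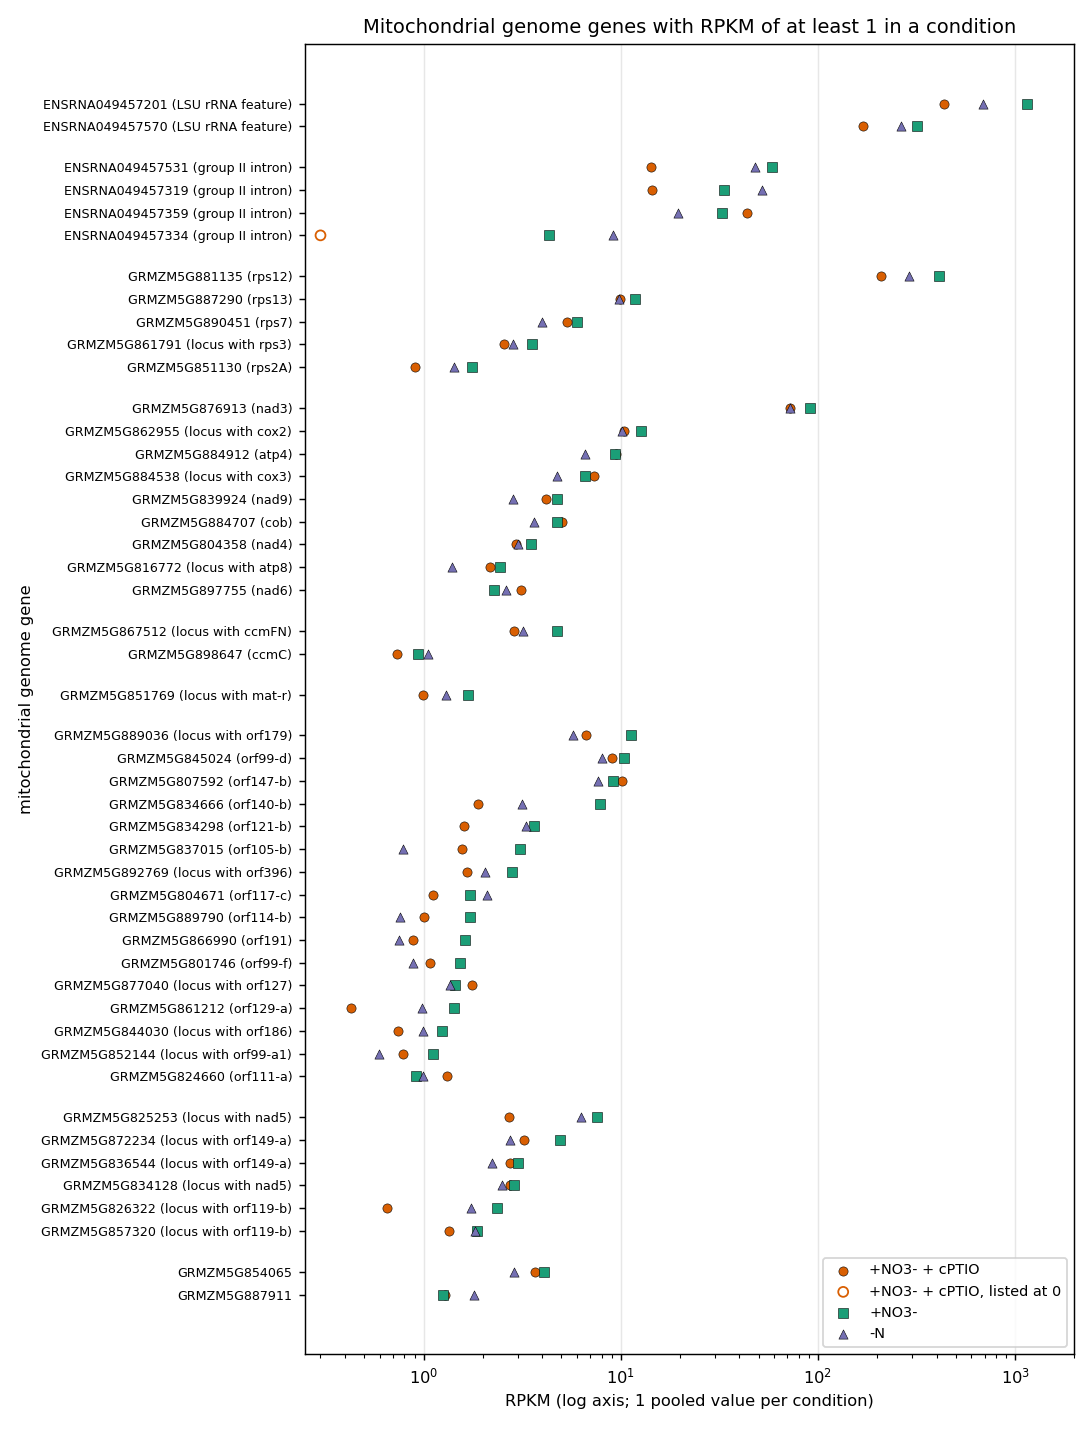
RPKM (log axis) of the 47 mitochondrial genome genes with at least 1 RPKM in a condition, 1 pooled value for each of +NO3- + cPTIO (circles), +NO3- (squares) and −N (triangles), grouped by class from ribosomal RNA features at the top to loci without a whole RefSeq gene at the bottom. The open circle marks a value listed at 0, and the rRNA features, rps12 and nad3 stand apart from the other members, which lie under 60 RPKM.

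Over all classes, and for members with at least 1 RPKM in 1 of the conditions compared, 9 of 46 members were lower by over 2-fold in +NO3- + cPTIO than in +NO3-, 1 of them listed at 0 in +NO3- + cPTIO, against 12.7% of all 21617 genes compared. None of the 46 was higher by over 2-fold, against 7.08% of all genes. In either direction at any size, 37 of the 46 were lower, against 55.1% of all genes. The median log2 ratio of the members was −0.50 (quartiles −0.90 and −0.14), beside −0.07 for all genes. The members lower by over 2-fold included 4 of the 6 features named as ribosomal RNA or group II introns. Without these features, 5 of 40 members were lower by over 2-fold, 32 of 40 were lower at any size, and the median was −0.47. A gene that reaches 1 RPKM in only 1 of the conditions compared is bound to be higher there. This holds for every count by direction given here, among members and all genes alike. Members at 1 RPKM or more numbered 38 in +NO3- + cPTIO, 45 in +NO3- and 39 in −N. With no minimum, 73 of 104 members were lower in +NO3- + cPTIO than in +NO3-. In every count with no minimum, a gene listed at 0 in 1 of the conditions compared is bound to be lower there. Of the 111 members, 25 were listed at 0 in +NO3- + cPTIO and 11 in +NO3-. The share of all genes was not computed for that setting.

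Between +NO3- + cPTIO and −N, the members were centred near equality. Of 43 members, 1 was higher by over 2-fold, against 8.33% of all genes, and 6 were lower, against 9.21%, of 21312 genes. At any size, 22 of the 43 were higher, against 48.1% of all genes, and the median log2 ratio was 0.03 (quartiles −0.52 and 0.40), beside −0.03 for all genes. After rescaling to the upper quartile the median of the members was −0.01. The member higher by over 2-fold was the intron feature ENSRNA049457359, and without the ribosomal RNA and intron features 3 of 37 members were lower by over 2-fold and the median was 0.14.

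Between +NO3- and −N, 40 of 46 members were higher, against 56.3% of all 21290 genes. Of the 46, 4 were higher by over 2-fold, against 5.24% of all genes, and 1 was lower, against 2.54%. Of the 4, orf105-b, orf114-b and orf191 were under 1 RPKM in −N, so their direction was fixed by the minimum. The median log2 ratio was 0.38 (quartiles 0.25 and 0.70), beside 0.04 for all genes. The shift was thus broad and small. The 3 comparisons share their conditions in pairs, so a high value in +NO3- enters the first and the last of them alike.

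**Figure D2:**
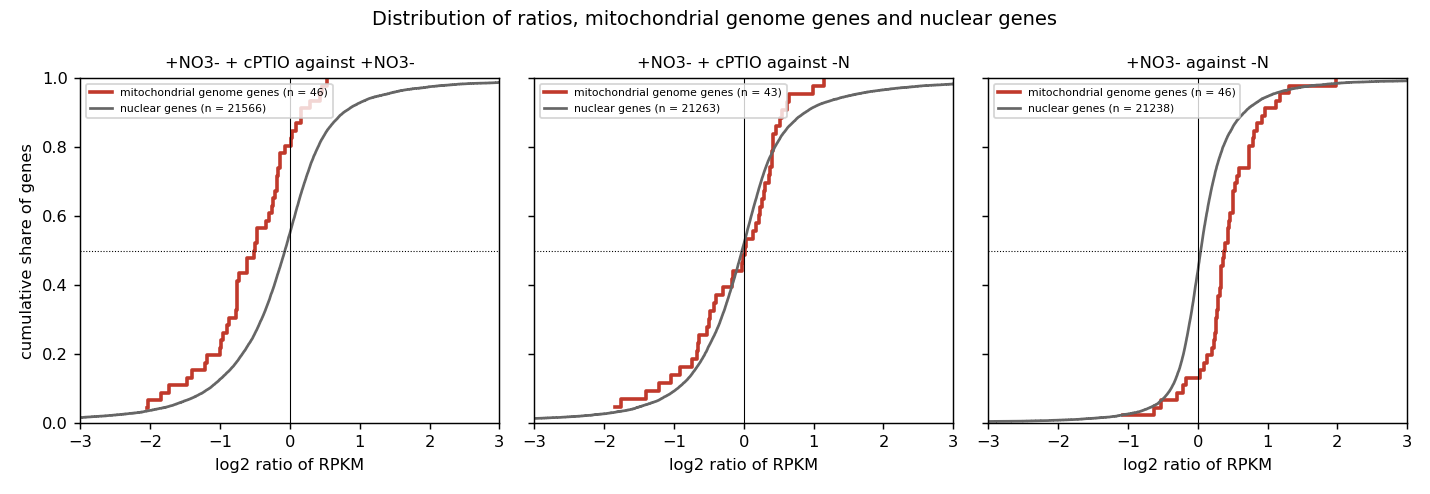
Cumulative share of genes by log2 ratio of RPKM, for the mitochondrial genome genes (red) and the nuclear genes (grey) with at least 1 RPKM in 1 of the conditions compared, in the same 3 comparisons; genes listed at 0 in the first condition count from the left edge. The red curve lies to the left of the grey one in +NO3- + cPTIO against +NO3- (medians −0.50 and −0.07) and to the right of it in +NO3- against −N (medians 0.38 and 0.04).

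The ribosomal RNA features were among the 3 members with the highest mean values, on either side of rps12. ENSRNA049457201 (Mt 474241 to 474400) had 435 RPKM in +NO3- + cPTIO, 1145 RPKM in +NO3- and 689 RPKM in −N. ENSRNA049457570 (Mt 74874 to 75100) had 170 RPKM in +NO3- + cPTIO, 317 RPKM in +NO3- and 264 RPKM in −N. In both, +NO3- was the highest condition and +NO3- + cPTIO the lowest, with log2 ratios of −1.40 and −0.90 between +NO3- + cPTIO and +NO3-. The other 2 Mt features of that name were listed at 0 throughout. The name is LSU_rRNA_eukarya, the family of the cytosolic large subunit, and neither member overlaps the interval of a mitochondrial ribosomal RNA gene (rrn5, rrn18 or rrn26) in RefSeq.

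Nuclear features of the same name were mostly ordered alike, and the highest of them had far higher values. On chromosome 5, ENSRNA049455955, which is 160 bases long like ENSRNA049457201 on Mt, had 3381 RPKM in +NO3- + cPTIO, 6753 RPKM in +NO3- and 4630 RPKM in −N. The 29 nuclear features of that name summed to 51868 RPKM in +NO3- + cPTIO, 81943 RPKM in +NO3- and 56651 RPKM in −N, which is 6.71%, 8.95% and 6.40% of the summed RPKM of all genes. Of those with at least 1 RPKM, 19 of 20 were lower in +NO3- + cPTIO than in +NO3- (median log2 ratio −0.98), 18 of 19 were lower in +NO3- + cPTIO than in −N (median −0.45), and 19 of 20 were higher in +NO3- than in −N (median 0.53). Exceptions were ENSRNA049478180, with 3114 RPKM in +NO3- + cPTIO, listed at 0 in +NO3- and with 3591 RPKM in −N, and ENSRNA049478221, lowest in −N. Whether the Mt and nuclear features share reads was not tested. The part of ribosomal RNA carried through the poly(A) selection in the ratios of the other members was not tested.

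**Figure D3:**
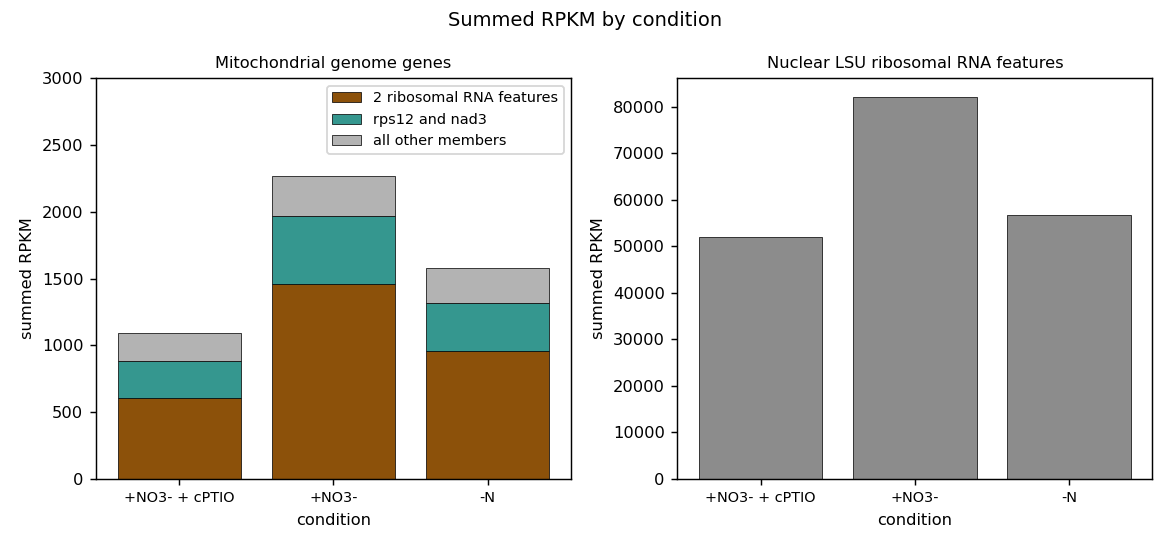
Summed RPKM in +NO3- + cPTIO, +NO3- and −N for the 111 mitochondrial genome genes (left, stacked into the 2 ribosomal RNA features, rps12 with nad3, and the 107 others) and for the 29 nuclear features named as large subunit ribosomal RNA (right). Both sums are highest in +NO3-, at 2272 RPKM on the left and 81943 RPKM on the right, and both are lowest in +NO3- + cPTIO.

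Among the protein-coding members, rps12 and nad3 had by far the highest values. rps12 (GRMZM5G881135, Mt 262384 to 262761), a protein of the small subunit of the mitochondrial ribosome, had 208 RPKM in +NO3- + cPTIO, 413 RPKM in +NO3- and 289.9 RPKM in −N. nad3 (GRMZM5G876913, Mt 262806 to 263162), a subunit of complex I, the NADH dehydrogenase of the respiratory chain, had 71.8 RPKM in +NO3- + cPTIO, 91.0 RPKM in +NO3- and 72.3 RPKM in −N. The genes lie 44 bases apart and are transcribed together in several plants, but their ratios were unequal. Between +NO3- + cPTIO and +NO3- the log2 ratio was −0.99 for rps12 and −0.34 for nad3, and between +NO3- + cPTIO and −N it was −0.48 for rps12 and −0.01 for nad3.

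Subunits of the respiratory chain and of ATP synthase whose locus is not shared with another gene differed little between the nitrate conditions. All 9 members of this class reached 1 RPKM: nad3, nad4, nad6 and nad9 of complex I, cob (cytochrome b of complex III), loci that cover cox2 and cox3 (subunits of cytochrome c oxidase, to which NO can bind), atp4, and a locus that covers atp8 (both of the membrane part of ATP synthase). Their log2 ratios between +NO3- + cPTIO and +NO3- lay between −0.34 and 0.46, with a median of −0.16, and 5 of the 9 were lower. Against −N, 7 of the 9 were higher in +NO3- + cPTIO (median 0.47, between −0.03 and 0.64), or 8 of the 9 after rescaling to the median ratio of nuclear genes, and 8 of the 9 were higher in +NO3- (median 0.38, between −0.21 and 0.81). No member of this class passed 2-fold in any comparison. The class leaves out the nad5 and nad7 loci of complex I, which hold several genes each and are described below. It also leaves out members that overlap nad2 or nad4L of complex I without covering them whole. At nad2, GRMZM5G887911 and orf117-c had log2 ratios of −0.52 and −0.29 between +NO3- and −N. Between +NO3- + cPTIO and −N they had −0.49 and −0.91, and between the nitrate conditions 0.03 and −0.62. The nad5 locus also covers orf105-c, and which of its identifiers stands for nad5 was not resolved. GRMZM5G825253 of that locus had log2 ratios of −1.48 against +NO3- and −1.21 against −N in +NO3- + cPTIO. GRMZM5G834128 of that locus had −0.07 and 0.14.

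The individual subunits show how close the nitrate conditions were. The cox2 locus (GRMZM5G862955) had 10.4 RPKM in +NO3- + cPTIO, 12.7 RPKM in +NO3- and 10.1 RPKM in −N. The cox3 locus (GRMZM5G884538) had 7.36 RPKM in +NO3- + cPTIO, 6.57 RPKM in +NO3- and 4.77 RPKM in −N. atp4 (GRMZM5G884912) had 9.51 RPKM in +NO3- + cPTIO, 9.40 RPKM in +NO3- and 6.62 RPKM in −N. For cox3 and atp4, −N was the lowest condition and +NO3- + cPTIO the highest, whereas for cox2 the values of +NO3- + cPTIO and −N were nearly equal and that of +NO3- was higher. cob (GRMZM5G884707) had 5.02 RPKM in +NO3- + cPTIO, 4.73 RPKM in +NO3- and 3.64 RPKM in −N. nad9 (GRMZM5G839924) had 4.18 RPKM in +NO3- + cPTIO, 4.76 RPKM in +NO3- and 2.85 RPKM in −N. nad6 (GRMZM5G897755) had 3.13 RPKM in +NO3- + cPTIO, 2.27 RPKM in +NO3- and 2.62 RPKM in −N. nad6 was thus the only one of the 9 with its lowest value in +NO3-. nad4 (GRMZM5G804358) had 2.93 RPKM in +NO3- + cPTIO, 3.52 RPKM in +NO3- and 3.00 RPKM in −N. The atp8 locus (GRMZM5G816772) had 2.18 RPKM in +NO3- + cPTIO, 2.45 RPKM in +NO3- and 1.40 RPKM in −N, a log2 ratio of 0.64 between +NO3- + cPTIO and −N and of 0.81 between +NO3- and −N.

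Of the 6 ribosomal protein genes, 5 reached 1 RPKM. These 5 were all lower in +NO3- + cPTIO than in +NO3- and all higher in +NO3- than in −N. Their median log2 ratio was −0.47 between +NO3- + cPTIO and +NO3-, −0.15 between +NO3- + cPTIO and −N, and 0.32 between +NO3- and −N. rps4 (GRMZM5G849223), under 1 RPKM throughout, had 0.163 RPKM in +NO3- + cPTIO, 0.0769 RPKM in +NO3- and 0.0756 RPKM in −N. It was thus higher in +NO3- + cPTIO than in +NO3-, by a log2 ratio of 1.08. rps2A (GRMZM5G851130) came closest to rps12, with 0.905 RPKM in +NO3- + cPTIO, 1.75 RPKM in +NO3- and 1.43 RPKM in −N, a log2 ratio of −0.95 between the nitrate conditions. rps13 (GRMZM5G887290) differed little, with 9.94 RPKM in +NO3- + cPTIO, 11.8 RPKM in +NO3- and 9.78 RPKM in −N. rps7 (GRMZM5G890451) had 5.32 RPKM in +NO3- + cPTIO, 6.01 RPKM in +NO3- and 3.98 RPKM in −N. A locus that covers rps3 and rpl16 (GRMZM5G861791) had 2.56 RPKM in +NO3- + cPTIO, 3.56 RPKM in +NO3- and 2.85 RPKM in −N.

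The factors for cytochrome c maturation and the maturase were present at low values. A locus that covers ccmFN (GRMZM5G867512), part of the haem lyase of cytochrome c maturation, and part of rps1 had 2.87 RPKM in +NO3- + cPTIO, 4.76 RPKM in +NO3- and 3.21 RPKM in −N. ccmC (GRMZM5G898647), which handles haem for the same pathway, had 0.735 RPKM in +NO3- + cPTIO, 0.938 RPKM in +NO3- and 1.06 RPKM in −N. The mat-r locus (GRMZM5G851769), for the maturase that assists splicing of group II introns, had 0.993 RPKM in +NO3- + cPTIO, 1.68 RPKM in +NO3- and 1.31 RPKM in −N. All of these reached 1 RPKM in a condition and were lower in +NO3- + cPTIO than in each of the other conditions, by log2 ratios between −0.76 and −0.16. ccmB (GRMZM5G889905), under 1 RPKM throughout, had 0.146 RPKM in +NO3- + cPTIO, 0.0926 RPKM in +NO3- and 0.200 RPKM in −N. It was thus higher in +NO3- + cPTIO than in +NO3-.

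The group II intron features, 4 members of 13 so named on Mt, differed among themselves. ENSRNA049457531, in the locus of nad5 (Mt 204632 to 207081), had 14.2 RPKM in +NO3- + cPTIO, 58.3 RPKM in +NO3- and 47.8 RPKM in −N. ENSRNA049457319 (Mt 326739 to 326857), which overlaps a transfer RNA gene of plastid origin, had 14.4 RPKM in +NO3- + cPTIO, 33.6 RPKM in +NO3- and 51.8 RPKM in −N. Both were therefore lowest in +NO3- + cPTIO, by log2 ratios of −2.04 and −1.22 against +NO3- and of −1.75 and −1.85 against −N. ENSRNA049457359 (Mt 111525 to 111613) was instead highest in +NO3- + cPTIO, with 43.6 RPKM in +NO3- + cPTIO, 32.5 RPKM in +NO3- and 19.6 RPKM in −N. ENSRNA049457334, in the locus of nad7 (Mt 237577 to 243574), was listed at 0 in +NO3- + cPTIO and had 4.32 RPKM in +NO3- and 9.09 RPKM in −N. The nad7 gene itself (GRMZM5G856027) was listed at 0 in every condition, so reads of the gene and of the intron feature within it cannot be told apart. These features are short or lie inside longer genes, and 14 members in all share a locus with another gene.

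Genes that share the locus of nad5 and orf105-c had unequal ratios. GRMZM5G825253 had 2.72 RPKM in +NO3- + cPTIO, 7.58 RPKM in +NO3- and 6.27 RPKM in −N. GRMZM5G834128 of the same locus had 2.74 RPKM in +NO3- + cPTIO, 2.87 RPKM in +NO3- and 2.49 RPKM in −N. A second shared locus, with orf119-b and orf99-e, likewise held an unequal pair: GRMZM5G826322 had 0.655 RPKM in +NO3- + cPTIO, 2.35 RPKM in +NO3- and 1.73 RPKM in −N. Its partner GRMZM5G857320 had 1.35 RPKM in +NO3- + cPTIO, 1.87 RPKM in +NO3- and 1.82 RPKM in −N. The third, with orf149-a and orf120, held GRMZM5G872234 with 3.22 RPKM in +NO3- + cPTIO, 4.92 RPKM in +NO3- and 2.74 RPKM in −N. Its partner GRMZM5G836544 had 2.74 RPKM in +NO3- + cPTIO, 3.02 RPKM in +NO3- and 2.23 RPKM in −N. All 6 were lower in +NO3- + cPTIO than in +NO3- and higher in +NO3- than in −N.

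ORFs of unknown product formed the largest class, with 66 members, of which 16 reached 1 RPKM. Between +NO3- + cPTIO and +NO3-, 13 of these 16 were lower, with a median log2 ratio of −0.75. Between +NO3- and −N, 14 of 15 were higher, with a median of 0.53. Between +NO3- + cPTIO and −N, 8 of 12 were higher, with a median of 0.25, or 8 of 15 after rescaling to the median ratio of nuclear genes, which brought more of them over 1 RPKM. The lowest finite ratio between the nitrate conditions, among members of at least 1 RPKM, was that of orf140-b (GRMZM5G834666, Mt 265988 to 266410), with 1.90 RPKM in +NO3- + cPTIO, 7.81 RPKM in +NO3- and 3.17 RPKM in −N. orf129-a (GRMZM5G861212) had 0.427 RPKM in +NO3- + cPTIO, 1.42 RPKM in +NO3- and 0.983 RPKM in −N. orf121-b (GRMZM5G834298) had 1.60 RPKM in +NO3- + cPTIO, 3.64 RPKM in +NO3- and 3.30 RPKM in −N. At the minimum of 1 RPKM, these were the ORFs lower by over 2-fold in +NO3- + cPTIO than in +NO3-. orf121-b was also lower by over 2-fold than in −N. So was orf129-a, by a log2 ratio of −1.20, but with both values under 1 RPKM it was not counted in that comparison.

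The highest ratio between +NO3- and −N among the ORFs of at least 1 RPKM was that of orf105-b (GRMZM5G837015), with 1.56 RPKM in +NO3- + cPTIO, 3.09 RPKM in +NO3- and 0.786 RPKM in −N. Its log2 ratio was 1.98 between +NO3- and −N, and its value in +NO3- + cPTIO lay between those of the other conditions. orf140-b (log2 ratio 1.30), orf114-b (1.18) and orf191 (1.12) were also higher by over 2-fold in +NO3- than in −N. orf114-b (GRMZM5G889790) had 1.00 RPKM in +NO3- + cPTIO, 1.71 RPKM in +NO3- and 0.757 RPKM in −N. orf191 (GRMZM5G866990) had 0.889 RPKM in +NO3- + cPTIO, 1.63 RPKM in +NO3- and 0.751 RPKM in −N. The values of orf114-b and orf191 stand near the minimum of 1 RPKM.

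Other ORFs with higher values differed less. A locus that covers orf179 (GRMZM5G889036) had 6.67 RPKM in +NO3- + cPTIO, 11.2 RPKM in +NO3- and 5.74 RPKM in −N, a log2 ratio of 0.97 between +NO3- and −N. orf99-d (GRMZM5G845024) had 8.99 RPKM in +NO3- + cPTIO, 10.4 RPKM in +NO3- and 7.99 RPKM in −N. orf147-b (GRMZM5G807592) had 10.2 RPKM in +NO3- + cPTIO, 9.09 RPKM in +NO3- and 7.64 RPKM in −N. orf147-b was thus highest in +NO3- + cPTIO, as were orf111-a (GRMZM5G824660) and a locus that covers orf127 and part of rps3 (GRMZM5G877040). orf111-a had 1.31 RPKM in +NO3- + cPTIO, 0.912 RPKM in +NO3- and 0.990 RPKM in −N, and its log2 ratio of 0.52 between the nitrate conditions was the highest among members of at least 1 RPKM. GRMZM5G877040 had 1.76 RPKM in +NO3- + cPTIO, 1.44 RPKM in +NO3- and 1.36 RPKM in −N. Among members of at least 1 RPKM in +NO3- or −N, 6 of 46 were higher in −N, and with no minimum 34 of 108 were. At that minimum of 1 RPKM, the lowest ratios of GRMZM5G identifiers were those of GRMZM5G887911, within nad2, and of orf117-c. GRMZM5G887911 had 1.28 RPKM in +NO3- + cPTIO, 1.26 RPKM in +NO3- and 1.80 RPKM in −N.

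**Figure D4:**
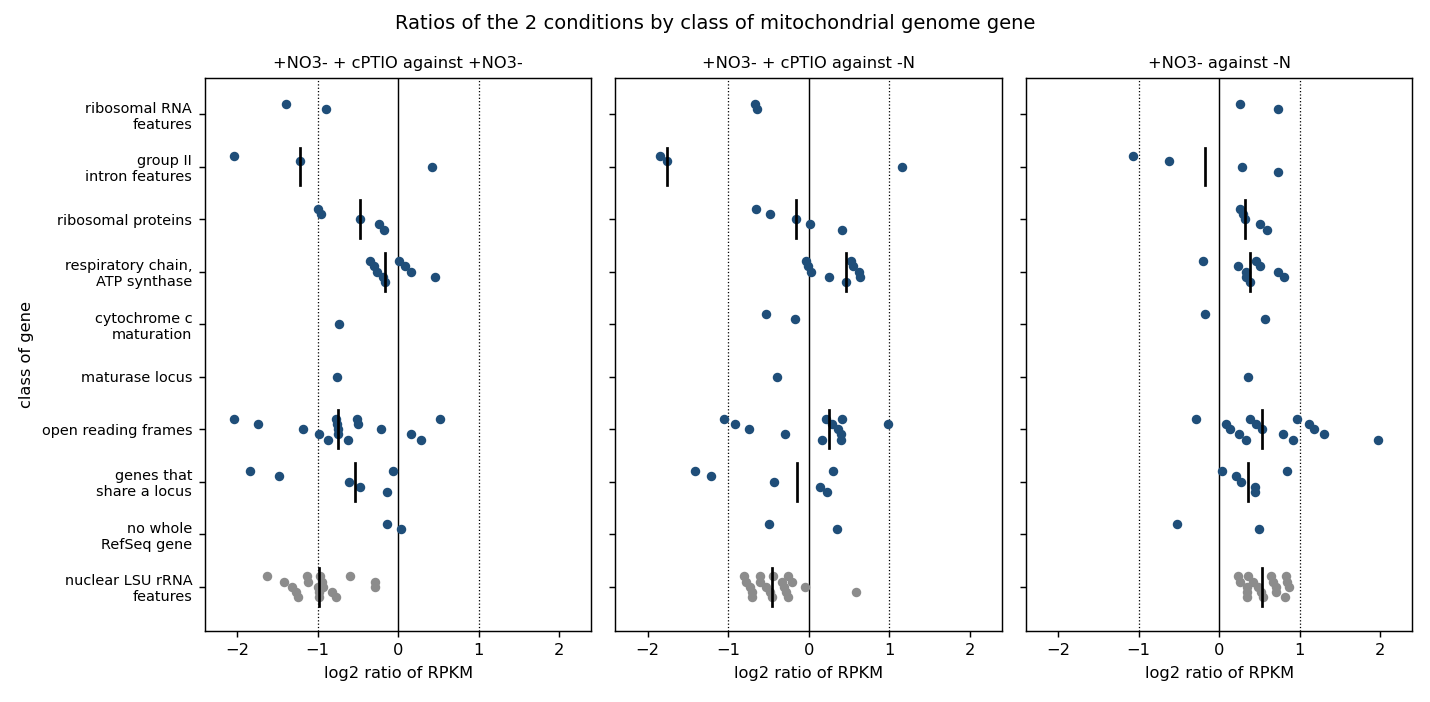
log2 ratio of RPKM for each mitochondrial genome gene with at least 1 RPKM in 1 of the conditions compared (dark points), by class, in +NO3- + cPTIO against +NO3-, +NO3- + cPTIO against −N, and +NO3- against −N; grey points are the nuclear features named as large subunit ribosomal RNA, bars are medians of 3 or more points, dotted lines mark 2-fold, and genes listed at 0 in a condition are not drawn. The respiratory chain class lies between −0.34 and 0.46 in the first panel, whereas the nuclear ribosomal RNA features have a median of −0.98 there.

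Taken in the order of the genome, 7 neighbouring members along 14.5 kb (Mt 261340 to 275849) all had at least 1 RPKM in a condition. They are the orf179 locus, rps12, nad3, orf140-b, the mat-r locus, orf114-b and the ccmFN locus. All 7 were lower in +NO3- + cPTIO than in +NO3-, as were 37 of 46 members and 55.1% of all genes, and all were higher in +NO3- than in −N, as were 40 of 46 members and 56.3% of all genes. The stretch was chosen after its values had been seen, and is given as a description.

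The genome of the other organelle gave little to compare. Of 73 genes on the chloroplast sequence, 41 were above 0 in at least 1 condition, and their RPKM summed to 14.6 in +NO3- + cPTIO, 14.5 in +NO3- and 19.5 in −N, so that the order of conditions seen in the mitochondrial sum was not seen there. At most 6 of them reached 1 RPKM in a comparison.

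Genes in a pair of copies were among those listed at 0. A row was counted by the RefSeq gene of its own interval or, failing that, by the longest RefSeq gene inside its locus. Of 18 Mt rows whose gene is so marked by its symbol as 1 of 2 copies, 16 were listed at 0 in every condition. The others were GRMZM5G852144, whose longer locus covers orf99-a1, with 0.782 RPKM in +NO3- + cPTIO, 1.12 RPKM in +NO3- and 0.591 RPKM in −N, and GRMZM5G894376, under 1 RPKM throughout. The count leaves out the locus at Mt 129509 to 132560, which covers the copies trnD-a2 and trnN-a2-ct beside the longer orf101-b. There GRMZM5G863003 had 0.0394 RPKM in +NO3- + cPTIO, 0.0894 RPKM in +NO3- and 0.0247 RPKM in −N. Of the 74 GRMZM5G genes that are alone in their locus and have the interval of a RefSeq gene that is not such a copy, 71 were members and 3 were listed at 0. The 4 transfer RNA features on Mt were all listed at 0. Genes of the mitochondrial lists whose RefSeq interval overlaps no Mt gene of the table (nad1, cox1, atp1, atp6, atp9, rps2B and the ribosomal RNA genes rrn5, rrn18 and rrn26) are not analysed here, and the nuclear genes for mitochondrial proteins are not analysed here either, since no table at hand pairs their identifiers with names.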

How the data were processed

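The authors deposited 1 RPKM per gene and condition, made with Cuffdiff from the libraries of a condition together, with quartile normalization and a correction for reads that map to several places. The submitters' processing notes name CASAVA 1.8, Trimmomatic 0.33, TopHat2 2.0.13, Cufflinks 2.2.1 and the B73 RefGen_v4 build. The labels name a stranded kit, and whether the counting used strand is not given in the sources used here. The transcript length behind each RPKM is not in the table, and the locus lengths can differ from it.

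Plain ratios of RPKM were taken for genes that reached 1 RPKM in either condition compared, with a limit of 2-fold. A gene at 0 in one of them was called past the limit and left out of medians and quartiles. No test was made, since each condition has 1 value. Shares over all genes were computed in the same way, at this minimum and limit only. The alternatives tried were other minimums (0.1 RPKM, 5 RPKM, or no minimum at all), pseudocounts (1 and 0.1), a limit of 1.5-fold, scaling by the median ratio of nuclear genes or by the upper quartile, members alone in their locus, and members with a locus longer than 300 bases. The values without ribosomal RNA and intron features and those of the nuclear ribosomal RNA features were chosen later, after seeing the data. Counts moved if they differed over 1.5 times from the main count, and log2 values if they differed by over 0.585.

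Members were named in the text when they were among the 10 highest mean RPKM, among the 5 highest or 5 lowest ratios of a comparison, named by the study or RefSeq, listed at 0 in 1 condition only, or in a shared locus. The members and lists were chosen with earlier results of these data known. Matching of RefSeq intervals across assemblies rests on 84 of 109 GRMZM5G genes alone in their locus having the same start and end in both. Every value column has its condition. The steps were tested on simulated data. Python 3.11.15, pandas 2.3.3 and numpy 2.4.6 were used.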

Additional observations from a re-analysis of the deposited data

How the results depend on the processing

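The medians and summed values of all 3 comparisons stayed within the limits for moving under every alternative run. The median between +NO3- + cPTIO and +NO3- ranged from −0.50 to −0.32, and that between +NO3- and −N from 0.30 to 0.42. The median between +NO3- + cPTIO and −N is too near 0 to carry a direction, at −0.01 to 0.14, below 0 after rescaling to the upper quartile. The rescalings shifted every ratio by at most 0.06 on the log2 scale, and left 37 of 46 members lower in +NO3- + cPTIO than in +NO3- and 40 of 47 or 48 higher in +NO3- than in −N. With a minimum of 0.1 RPKM these counts were 62 of 91 and 63 of 90, and with no minimum 73 of 104 and 74 of 108. Counts past 2-fold depend on the minimum, because most members are low. Shares of all genes were computed at the main setting only, so the counts under the alternatives cannot be set against the whole table. The counts that moved follow, in +NO3- + cPTIO against +NO3-, then in +NO3- + cPTIO against −N, then in +NO3- against −N. With a minimum of 0.1 RPKM, 10 members were higher and 26 lower, then 14 higher and 21 lower, then 15 higher and 13 lower. With no minimum, 11 were higher and 37 lower, then 15 higher and 27 lower, then 23 higher and 18 lower. With a minimum of 5 RPKM, 5 were lower in the first comparison and 1 was higher in the third. With a pseudocount of 1, 3 were lower in the second, and 2 were higher and 0 lower in the third. With a limit of 1.5-fold, 22 were lower in the first, 4 higher and 11 lower in the second, and 13 higher and 2 lower in the third. Among members alone in their locus, 5 were lower in the first, 2 lower in the second and 0 lower in the third. With loci longer than 300 bases, 0 were higher in the second. Rescaled to the median nuclear ratio, 2 were higher in the second. Among members with GRMZM5G identifiers, an alternative chosen after seeing the data, 5 were lower in the first, 0 higher and 3 lower in the second, and 0 lower in the third. These alternatives change the members counted, the limit or, with the pseudocount and the rescaling, the ratios themselves. For single named members, 5 of the ratios under an alternative moved and 503 did not, and none changed sign among those past 2-fold. No paired analysis was possible because each condition has 1 pooled value, and leaving out each replicate was not run for the same reason.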
